A study of Caenorhabditis elegans with 11 samples.

Results

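The genes described here encode chaperones of 3 families in Caenorhabditis elegans, namely the J-domain proteins (dnj), the subunits of the cytosolic chaperonin CCT (cct) and the subunits of prefoldin (pfd). The members were all protein-coding genes whose symbol begins with dnj-, cct- or pfd-, except the mitochondrial gene dnj-10, which left 42 of 19983 protein-coding genes: 28 dnj, 8 cct and 6 pfd genes. Transcripts were counted in whole L4 larvae, the last larval stage, raised on E. coli strain HT115. The genotypes were the double mutant, which carries atfs-1(null) together with nhr-180(cmh19) and had 3 libraries, atfs-1(null) with 3 libraries, nhr-180(cmh19) with 2 libraries (replicates 2 and 3), and wildtype with 3 libraries. The names of the wildtype libraries begin with N2. ATFS-1 is the transcription factor that turns on the mitochondrial unfolded protein response, and NHR-180 is a nuclear hormone receptor. The labels name no allele number for atfs-1(null), no lesion for cmh19 and no treatment, and all larvae of all genotypes had the same diet and stage. The labels call the libraries of a genotype biological replicates and do not say whether they came from separate cultures, so p-values measure the spread between these libraries. Whole larvae were sampled, so fewer cells of a type and less RNA per cell cannot be told apart.

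J-domain proteins, also called Hsp40s, bring unfolded clients to Hsp70 and start its ATP hydrolysis through the J-domain; each member takes Hsp70 to a place or a task, such as the cytosol, the endoplasmic reticulum (ER) or the mitochondrial import motor. CCT, also called TRiC, is a double ring in which each ring holds every CCT subunit, and it folds actin, tubulin and other cytosolic proteins as they leave the ribosome or after hand-over from prefoldin. Prefoldin is a jellyfish-shaped complex of alpha-type subunits (pfd-3 and pfd-5) and beta-type subunits (pfd-1, pfd-2, pfd-4 and pfd-6) that holds new actin and tubulin chains and passes them to CCT.

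Total counts lay between 20860822 and 22921602 per library. Counts of atfs-1 lay between 59 and 76 in the double mutant and 10 and 99 in atfs-1(null), against 902 to 1061 in nhr-180(cmh19) and 1085 to 1167 in wildtype. Counts of nhr-180 lay between 9 and 13 in the double mutant and 6 and 9 in nhr-180(cmh19), against 98 to 121 in atfs-1(null) and 65 to 87 in wildtype. Whole larvae hold all tissues, and each marker measured for oocytes, sperm, the germline in general, body wall muscle, intestine and neurons had counts in all 11 libraries. A pair of libraries stood apart in oocyte genes. The median of 16 oocyte genes, on the log2 CPM scale and relative to wildtype, was 1.55 in atfs-1(null) replicate 1, against 0.19 and 0.84 in the other two atfs-1(null) libraries, and -0.57 in wildtype replicate 2, against 0.49 and 0.09 in the other wildtype libraries. That median lay between 1.77 and 2.17 in the double mutant, above every other library, and at 0.28 and -0.06 in nhr-180(cmh19).

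All 42 genes passed the filter on low counts that left 16013 genes for testing. Levels are compared between genes as TPM, which the authors corrected for transcript length and library size. In wildtype the 8 CCT genes had mean levels between 103 TPM (cct-8) and 394 TPM (cct-5), with a median of 174 TPM. The 6 prefoldin genes lay between 60.1 TPM (pfd-3) and 227 TPM (pfd-1), with a median of 119 TPM. The J-domain genes covered a wider range, between 5.06 TPM (dnj-26) and 270.2 TPM (dnj-20), with a median of 33.7 TPM, so that the highest stood 53.4 times above the lowest, against 3.82 times for CCT and 3.78 times for prefoldin.

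The most abundant members in wildtype were cct-5 at 394 ± 1.46 TPM, dnj-20 at 270.2 ± 18.5 TPM and pfd-1 at 227 ± 7.85 TPM (SD, n = 3 each), and each of the first 2 had no library at or below the highest of the next gene. The next J-domain genes were cytosolic. The genes dnj-19 and dnj-12, which encode type A (DnaJ-like) cochaperones of cytosolic Hsp70, had 225 ± 8.80 and 199.5 ± 7.70 TPM. The gene dnj-13, which encodes the type B cochaperone that works with Hsp70 and Hsp110 in disaggregation, had 163 ± 12.4 TPM. The ranges of pfd-1 and dnj-19 overlapped in wildtype, as did those of dnj-19 and cct-1, those of cct-6, cct-4 and dnj-12 one after another, and those of every neighbouring pair from pfd-6 to cct-7. At the low end, dnj-4 (12.9 ± 0.26 TPM), dnj-3 (12.8 ± 1.14 TPM) and dnj-28 (10.8 ± 3.27 TPM) overlapped one after another, and dnj-26 stood below them at 5.06 ± 0.387 TPM.

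**Figure D1:**
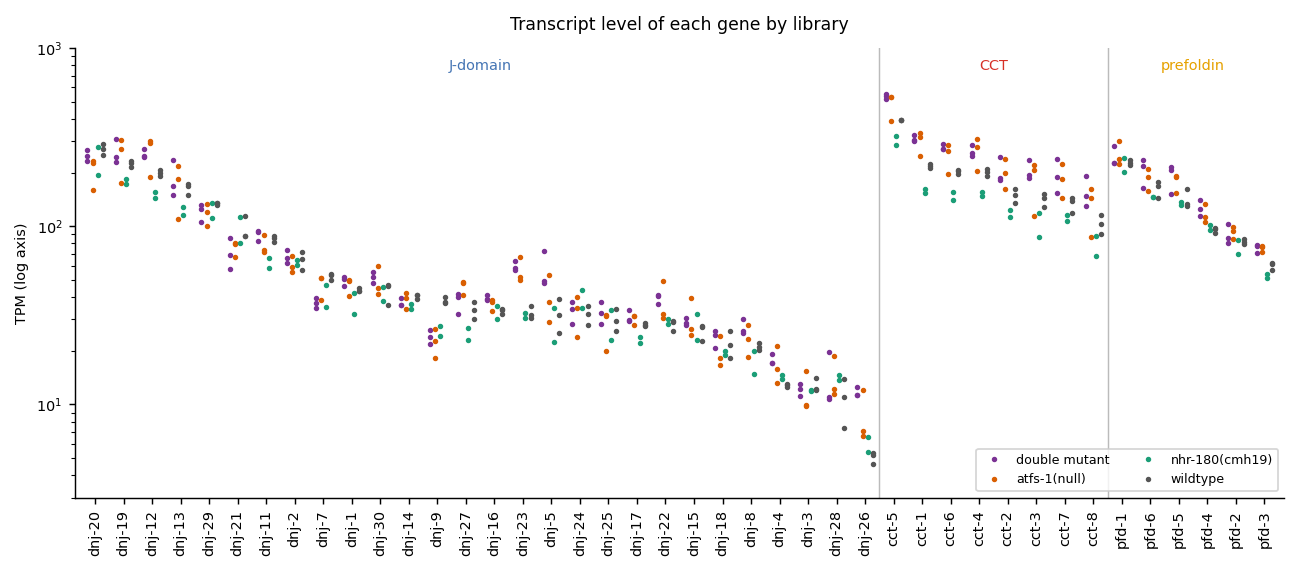
Level of each of the 42 genes in every library, as TPM on a log axis, with the J-domain genes left, the CCT genes in the middle and the prefoldin genes right, each family ordered by its wildtype mean. Each point is 1 library, coloured by genotype; the CCT genes lie between 103 and 394 TPM in the wildtype means, and their nhr-180(cmh19) points lie below the wildtype points.

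The same CCT subunit genes were highest and lowest in every library while the sum changed, but the shares varied between libraries. The share of cct-3 in the summed CCT TPM ranged from 7.37% to 9.99%, and that of cct-4 from 12.1% to 13.5%. The gene cct-5 was the highest of the 8 in all 11 libraries, with 23.3% to 26.9% of the summed CCT TPM, and cct-8 was the lowest in all 11, with 5.61% to 8.18%. By genotype, cct-5 held 25.02% ± 1.28 in the double mutant (n = 3), 24.5% ± 1.05 in atfs-1(null) (n = 3), 25.9% ± 0.122 in nhr-180(cmh19) (n = 2) and 25.6% ± 1.14 in wildtype (n = 3; SD throughout). The summed CCT level was 2063, 2039.9 and 2346 TPM in the double mutant, 1545, 2141 and 2287 TPM in atfs-1(null), 1237 and 1099.9 TPM in nhr-180(cmh19), and 1603, 1465 and 1549 TPM in wildtype. The same order held in CPM, which uses the library size after TMM and ignores length, and in which the sum averaged 3638 ± 144 in the double mutant, 3436 ± 437 in atfs-1(null), 2175 ± 8.69 in nhr-180(cmh19) and 2860 ± 83.1 in wildtype.

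The double mutant was compared with nhr-180(cmh19) to see how loss of atfs-1 acts on these genes where nhr-180 is mutated. All 8 CCT genes were higher in the double mutant, by log2 fold changes between 0.65 (cct-2) and 0.87 (cct-3) with a median of 0.72, against -0.01 for all genes tested. Each passed edgeR's two-sided quasi-likelihood test with a p of under 0.05 after Benjamini-Hochberg adjustment, the threshold used for every call; in this comparison 10.3% of all genes tested were called higher. In all 8 genes every double mutant library lay above both nhr-180(cmh19) libraries, which was so for 28.2% of all genes tested.

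The gene cct-1 had 485, 519 and 452 CPM in the double mutant, against 260.1 and 282 CPM in nhr-180(cmh19). The double mutant libraries were all well above the nhr-180(cmh19) libraries, and the fold change was 0.84 ± 0.14 (log2 ± SE, adjusted p = 0.00356 in edgeR). The gene cct-5 had 864, 878 and 847 CPM in the double mutant, against 539 and 536 CPM in nhr-180(cmh19). Its groups did not overlap either, and the 2 nhr-180(cmh19) libraries were nearly equal (0.68 ± 0.13, adjusted p = 0.00733 in edgeR). The gene cct-6 had 445, 444 and 438 CPM in the double mutant, against 258 and 262 CPM in nhr-180(cmh19), with little spread in either group (0.77 ± 0.14, adjusted p = 0.0053 in edgeR). The gene cct-4 had 413, 393 and 417 CPM in the double mutant, against 249 and 266 CPM in nhr-180(cmh19), again without overlap (0.66 ± 0.14, adjusted p = 0.0122 in edgeR).

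The other CCT genes varied more between libraries of the double mutant. The gene cct-3 had 434, 415 and 482 CPM in the double mutant, against 266 and 221 CPM in nhr-180(cmh19), and its fold change was 0.87 ± 0.21 (adjusted p = 0.0187 in edgeR). The gene cct-8 had 299, 261 and 358 CPM in the double mutant, against 179 and 157 CPM in nhr-180(cmh19) (0.86 ± 0.22, adjusted p = 0.0207 in edgeR). The groups of both genes were apart, and replicate 3 was the highest double mutant library in each. The gene cct-2 had 301, 306 and 373 CPM in the double mutant, against 205 and 211 CPM in nhr-180(cmh19) (0.65 ± 0.16, adjusted p = 0.0185 in edgeR). The gene cct-7 had 367, 296 and 427 CPM in the double mutant, against 225 and 235 CPM in nhr-180(cmh19) (0.66 ± 0.18, adjusted p = 0.0314 in edgeR). Replicate 3 was again the highest of the double mutant in both genes, and no library crossed into the other group. Of the 8 calls, 1 was left without nhr-180(cmh19) replicate 3 and 2 without nhr-180(cmh19) replicate 2, fits that rest on a single nhr-180(cmh19) library assumed to vary like the other genotypes; cct-1 was called in both.

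**Figure D2:**
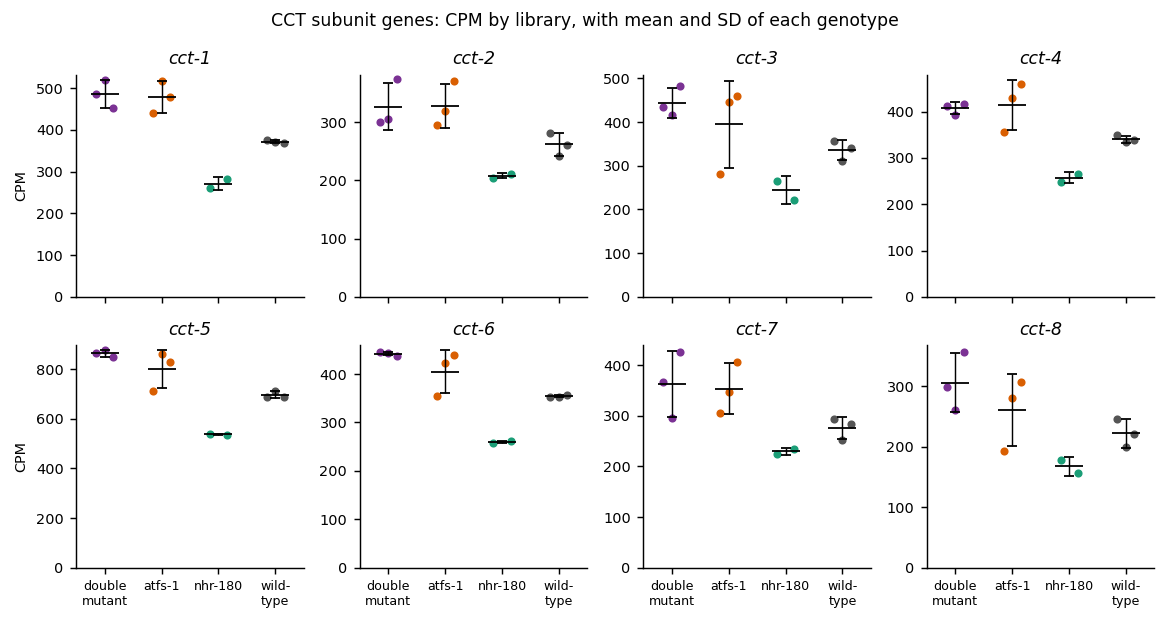
CPM of the 8 CCT genes in each library, with the mean (horizontal mark) and SD (bars) of each genotype. In each of the 8 panels the 2 nhr-180(cmh19) libraries lie below all 3 libraries of the double mutant and of wildtype, and atfs-1(null) replicate 1 (leftmost orange point) is the lowest of its genotype.

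Set against wildtype, the CCT genes lay on opposite sides in nhr-180(cmh19) and in the genotypes without atfs-1, but few of these differences passed the test. In nhr-180(cmh19) all 8 had negative fold changes, between -0.46 (cct-3, closely followed by cct-1) and -0.26 (cct-7) with a median of -0.40, and in each of them both nhr-180(cmh19) libraries lay below all 3 wildtype libraries. This held for 22.4% of all genes tested. No CCT gene was called by edgeR in nhr-180(cmh19) against wildtype (2.24% of all genes were called in either direction); 5 had an unadjusted p under 0.05, and the DESeq2 Wald test called 4. For cct-1, nhr-180(cmh19) libraries had 260.1 and 282 CPM and wildtype libraries 376, 372 and 367 CPM, a fold change of -0.46 with a 95% confidence interval of -0.75 to -0.16 (adjusted p = 0.113 in edgeR).

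In atfs-1(null) against wildtype the 8 CCT fold changes lay between 0.19 (cct-6) and 0.36 (cct-1), with a median of 0.26 against 0.06 for all genes tested. No gene was called by edgeR, where 7.54% of all genes tested were called higher; 3 had an unadjusted p under 0.05, and DESeq2 called 1. The libraries of 4 genes (cct-1, cct-2, cct-4 and cct-7) did not overlap with wildtype, against 16.3% of all genes tested with every atfs-1(null) library higher. The other 4 overlapped through a single library. In all 8 genes atfs-1(null) replicate 1 was the lowest of its genotype: cct-3 had 280.2, 445 and 459 CPM in atfs-1(null), against 356, 311 and 340.1 CPM in wildtype. The family median relative to the wildtype mean was 0.05 in atfs-1(null) replicate 1 and 0.34 and 0.44 in the other two (log2 CPM). The oocyte median was highest in atfs-1(null) replicate 1, where the CCT median was lowest, but both medians were highest in the same library in the double mutant, nhr-180(cmh19) and wildtype.

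In the double mutant against wildtype the CCT fold changes lay between 0.26 (cct-4) and 0.46 (cct-8), with a median of 0.35 against 0.02 for all genes tested. Only cct-1 was called among the 8 (0.39 ± 0.12, adjusted p = 0.049 in edgeR), where 10.1% of all genes tested were called higher; 6 had an unadjusted p under 0.05 and DESeq2 called 3. Its double mutant libraries had 485, 519 and 452 CPM, against 376, 372 and 367 CPM in wildtype. That call sat at the threshold and was lost without any one of 10 of the 11 libraries. In all 8 genes each double mutant library was above each wildtype library, which held for 24.1% of all genes tested. Against atfs-1(null) the double mutant showed no call in CCT, where 0.443% of all genes tested were called in either direction, none at an unadjusted p under 0.05 and none in DESeq2; the fold changes lay between -0.03 and 0.23, and their 95% confidence intervals together between -0.32 and 0.65.

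The interaction asks whether loss of atfs-1 changed a gene differently in nhr-180(cmh19) larvae and in larvae with intact nhr-180. Its coefficient was positive in all 8 CCT genes, between 0.30 (cct-7) and 0.64 (cct-8) with a median of 0.48 on the log2 scale, against 0.01 for all genes tested. None was called by edgeR, where 1.14% of all genes tested were called in either direction; 5 had an unadjusted p under 0.05, and DESeq2 called 1 (cct-6). A larger CCT difference in the nhr-180(cmh19) background was therefore not called in this test. The comparisons share libraries, the double mutant and nhr-180(cmh19) each entering several of them, so their fold changes are not separate measurements.

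The prefoldin medians were smaller in size than the CCT medians in each pairwise comparison. None of the 6 was called by edgeR in any comparison, and none by DESeq2. At most 10.3% of all genes tested were called higher and 8.21% lower in a comparison, so no call among 6 genes does not set prefoldin apart. At an unadjusted p under 0.05 there was 1, pfd-3 in the double mutant against nhr-180(cmh19). The medians were 0.16 in atfs-1(null) against wildtype, -0.08 in nhr-180(cmh19) against wildtype, 0.01 in the double mutant relative to atfs-1(null), 0.29 in the double mutant against nhr-180(cmh19) and 0.20 in the double mutant against wildtype (log2 fold changes of CPM). The 95% confidence intervals of single genes reached from -0.49 to 0.88 in the double mutant against nhr-180(cmh19), and those of pfd-5 and pfd-6 included the CCT median of 0.72.

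The alpha-type subunit gene pfd-3 had 60.5, 59.0 and 50.1 CPM in the double mutant, against 41.9 and 44.9 CPM in nhr-180(cmh19), and its libraries did not overlap (0.38 ± 0.15, adjusted p = 0.1001 in edgeR). The other alpha-type gene, pfd-5, had 106, 108 and 71.0 CPM in the double mutant, against 66.9 and 78.9 CPM in nhr-180(cmh19) (0.38 ± 0.22, adjusted p = 0.263 in edgeR). Here double mutant replicate 3 lay between the 2 nhr-180(cmh19) libraries. Among the beta-type genes, pfd-1 was the highest prefoldin gene in all 11 libraries and had nearly the same mean in every genotype, at 95.03 ± 14.7 CPM in the double mutant, 102 ± 26.1 CPM in atfs-1(null), 95.4 ± 20.4 CPM in nhr-180(cmh19) and 96.8 ± 3.82 CPM in wildtype. The fold changes of pfd-2 lay between -0.09 and 0.08 over the 5 pairwise comparisons, and those of pfd-4 and pfd-6 between -0.15 and 0.36.

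The prefoldin genes moved together between libraries of a genotype and, outside nhr-180(cmh19), mostly in another order than CCT. In atfs-1(null), replicate 1 was the highest library for all 6 prefoldin genes and the lowest for all 8 CCT genes. In nhr-180(cmh19), replicate 2 was the lowest for all 6 prefoldin genes and also for 5 of the 8 CCT genes. In the double mutant, replicate 3 was the lowest for 5 of the 6 prefoldin genes and the highest for 5 of the 8 CCT genes. The ratio of summed CCT to summed prefoldin TPM was 2.19, 1.98 and 2.83 in the double mutant, 1.54, 2.41 and 2.81 in atfs-1(null), 1.77 and 1.44 in nhr-180(cmh19), and 2.20, 1.81 and 2.01 in wildtype. The lowest wildtype ratio was above both nhr-180(cmh19) ratios, and the double mutant and atfs-1(null) ranges overlapped with wildtype.

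**Figure D3:**
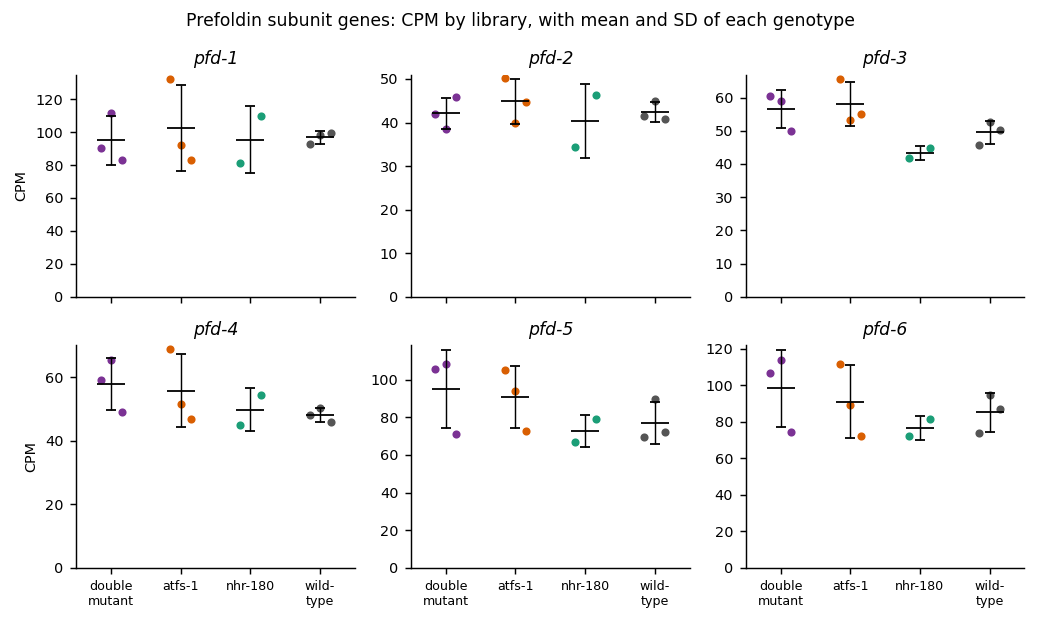
CPM of the 6 prefoldin genes in each library, with the mean (horizontal mark) and SD (bars) of each genotype. Libraries of different genotypes overlap in most panels; the leftmost orange point, atfs-1(null) replicate 1, is the highest of its genotype in all 6.

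J-domain genes went in both directions. By edgeR 8 of the 28 were called in at least 1 comparison. The share of all genes called in at least 1 comparison was not computed, so this count does not set the family apart. In atfs-1(null) against wildtype, dnj-23 was called higher and dnj-9 and dnj-20 lower (7.54% of all genes tested were called higher and 6.77% lower). In nhr-180(cmh19) against wildtype no J-domain gene was called by edgeR, where 2.24% of all genes tested were called in either direction. At an unadjusted p under 0.05 there were 5, all lower, and DESeq2 called 2. In the double mutant relative to atfs-1(null) none was called, where 0.443% of all genes tested were called in either direction. Here 2 had an unadjusted p under 0.05 and DESeq2 called none. In the double mutant against nhr-180(cmh19), 4 of 28 were called higher (dnj-5, dnj-8, dnj-12 and dnj-23) and none lower, where 10.3% of all genes tested were called higher and 8.21% lower; 1 J-domain gene was lower at an unadjusted p under 0.05. In the double mutant against wildtype, dnj-23 and dnj-26 were called higher and dnj-7 and dnj-9 lower, where 10.1% of all genes tested were called higher and 6.27% lower.

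Of the cytosolic cochaperone genes named above, dnj-12 was called and dnj-13 and dnj-19 were not. The gene dnj-12 had 351, 355 and 359 CPM in the double mutant and 298, 417 and 395 CPM in atfs-1(null), against 226 and 235 CPM in nhr-180(cmh19) and 314, 302 and 302 CPM in wildtype. The nhr-180(cmh19) libraries were the lowest of all 11, and atfs-1(null) replicate 1 was below the other two of its genotype, as in CCT. Against nhr-180(cmh19) the double mutant was higher by 0.62 ± 0.16 (adjusted p = 0.0215 in edgeR), a call lost without either nhr-180(cmh19) library. The gene dnj-13 averaged 213 ± 41.8 CPM in the double mutant, 202 ± 52.4 CPM in atfs-1(null), 157 ± 2.48 CPM in nhr-180(cmh19) and 209 ± 11.7 CPM in wildtype, and dnj-19 averaged 333 ± 36.8 CPM in the double mutant, 326 ± 64.4 CPM in atfs-1(null), 252 ± 8.14 CPM in nhr-180(cmh19) and 316 ± 6.53 CPM in wildtype. Neither was called by edgeR or DESeq2 in any comparison. In both, every nhr-180(cmh19) library lay below every double mutant and every wildtype library, and atfs-1(null) replicate 1, at 144 CPM of dnj-13 and 254 CPM of dnj-19, lay below 1 or both nhr-180(cmh19) libraries.

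Among dnj-20, dnj-7, dnj-27 and dnj-29, which encode J-domain proteins of the ER, dnj-20 and dnj-7 had calls by edgeR. The gene dnj-20 encodes the worm counterpart of mammalian ERdj3 (DNAJB11), which binds unfolded chains in the ER lumen. It had 339, 437 and 408 CPM in atfs-1(null), against 584, 529 and 555 CPM in wildtype, and every atfs-1(null) library was lower (-0.49 ± 0.15, adjusted p = 0.0455 in edgeR). This call was lost in 13 of 20 alternatives, among them the fits without atfs-1(null) replicate 1 (adjusted p = 0.0794) and on TPM. The double mutant had 448, 514 and 438 CPM of dnj-20 and nhr-180(cmh19) 539 and 425 CPM, and neither genotype was called against wildtype.

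The gene dnj-7, the counterpart of mammalian P58IPK (DNAJC3), also of the ER lumen, had 62.3, 58.5 and 61.1 CPM in the double mutant, against 88.1, 98.0 and 96.4 CPM in wildtype. The double mutant was the lowest genotype, and its fall against wildtype of -0.63 ± 0.12 (adjusted p = 0.00669 in edgeR) was called in all 20 alternatives. Single mutants lay between, with 71.6, 83.3 and 81.3 CPM in atfs-1(null) and 79.3 and 67.9 CPM in nhr-180(cmh19), and both had every library below wildtype without a call (fold changes of -0.26 and -0.36). The interaction coefficient of dnj-7 was -0.02, with a 95% confidence interval of -0.42 to 0.38, on the log2 scale. The gene dnj-27, the counterpart of mammalian ERdj5 (DNAJC10), a disulfide reductase of the ER, averaged 79.2 ± 9.45 CPM in the double mutant, 98.4 ± 1.53 CPM in atfs-1(null), 57.4 ± 1.57 CPM in nhr-180(cmh19) and 77.8 ± 9.69 CPM in wildtype. The gene dnj-29, which encodes the SEC63 subunit of the ER translocation machinery, averaged 274 ± 25.1 CPM in the double mutant, 273 ± 17.2 CPM in atfs-1(null), 306 ± 16.4 CPM in nhr-180(cmh19) and 333 ± 3.64 CPM in wildtype. Neither dnj-27 nor dnj-29 was called by edgeR in any comparison. DESeq2 called dnj-27 higher in the double mutant against nhr-180(cmh19) (adjusted p = 0.0316) and dnj-29 lower in atfs-1(null) (adjusted p = 0.0360) and in the double mutant (adjusted p = 0.0369) against wildtype.

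The smallest adjusted p among the J-domain genes was that of dnj-9. It had 39.95, 43.2 and 43.7 CPM in the double mutant, 36.3, 39.95 and 45.4 CPM in atfs-1(null), 50.7 and 49.8 CPM in nhr-180(cmh19), and 70.5, 79.5 and 72.6 CPM in wildtype. All mutant libraries lay below all wildtype libraries, and those without atfs-1 lay lowest. It fell in atfs-1(null) against wildtype (-0.87 ± 0.12, adjusted p = 0.000995 in edgeR) and in the double mutant against wildtype (-0.81 ± 0.12, adjusted p = 0.00211 in edgeR), both called in all 20 alternatives. In nhr-180(cmh19) against wildtype the fold change was -0.56 ± 0.14, which was not called (adjusted p = 0.0642 in edgeR). The double mutant and atfs-1(null) had nearly the same level (0.06 ± 0.12, adjusted p = 0.988 in edgeR), and the interaction was 0.62 ± 0.18 on the log2 scale and not called by edgeR (adjusted p = 0.161). DESeq2 called both the fall in nhr-180(cmh19) (adjusted p = 0.00289) and the interaction (adjusted p = 0.0333).

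The gene dnj-23 is the counterpart of human DNAJC9, a J-domain protein that binds histones. It had 51.2, 55.0 and 45.9 CPM in the double mutant and 64.3, 42.4 and 42.5 CPM in atfs-1(null), against 26.8 and 32.4 CPM in nhr-180(cmh19) and 32.99, 30.4 and 28.2 CPM in wildtype. All libraries without atfs-1 lay above all libraries with it. The fold changes were 0.73 ± 0.18 in the double mutant against wildtype (adjusted p = 0.0187), 0.78 ± 0.20 in the double mutant against nhr-180(cmh19) (adjusted p = 0.0242) and 0.71 ± 0.18 in atfs-1(null) against wildtype (adjusted p = 0.0238, all in edgeR). Without atfs-1(null) replicate 1, which was its highest library and the highest of its genotype in oocyte genes, the last of these was 0.45 (adjusted p = 0.0507 in edgeR). That call was lost in 6 of 20 alternatives, among them the fits without any one of the 3 wildtype libraries (the highest adjusted p was 0.106 in edgeR, without replicate 3). The calls in the double mutant were lost in 4 of 20 alternatives each: without double mutant replicate 1 or 2 in both, without either nhr-180(cmh19) library against nhr-180(cmh19), and without wildtype replicate 2 or 3 against wildtype. In dnj-23 nhr-180(cmh19) did not stand apart from wildtype (-0.04 ± 0.20).

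The gene dnj-26, the lowest of the 42 in TPM, had 12.5, 12.4 and 12.7 CPM in the double mutant, against 5.999, 6.48 and 5.40 CPM in wildtype, a fold change of 1.07 ± 0.26 (adjusted p = 0.0173 in edgeR). The double mutant libraries lay close together, above all wildtype libraries. The call was lost without double mutant replicate 2 or 3 or wildtype replicate 3 (the highest adjusted p was 0.0788 in edgeR). The atfs-1(null) libraries had 14.7, 7.12 and 7.37 CPM and the nhr-180(cmh19) libraries 7.28 and 6.74 CPM; replicate 1 was thus far above the other two of atfs-1(null). With it, the double mutant relative to atfs-1(null) gave 0.37 ± 0.25 (adjusted p = 0.787 in edgeR), and without it 0.79 (adjusted p = 0.0156 in edgeR). The 4 libraries with the most dnj-26 were also the 4 with the highest oocyte median, which was 1.77 to 2.17 in the double mutant, 1.55 in atfs-1(null) replicate 1 and at most 0.84 elsewhere; the part of oocyte RNA in dnj-26 was not tested.

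**Figure D4:**
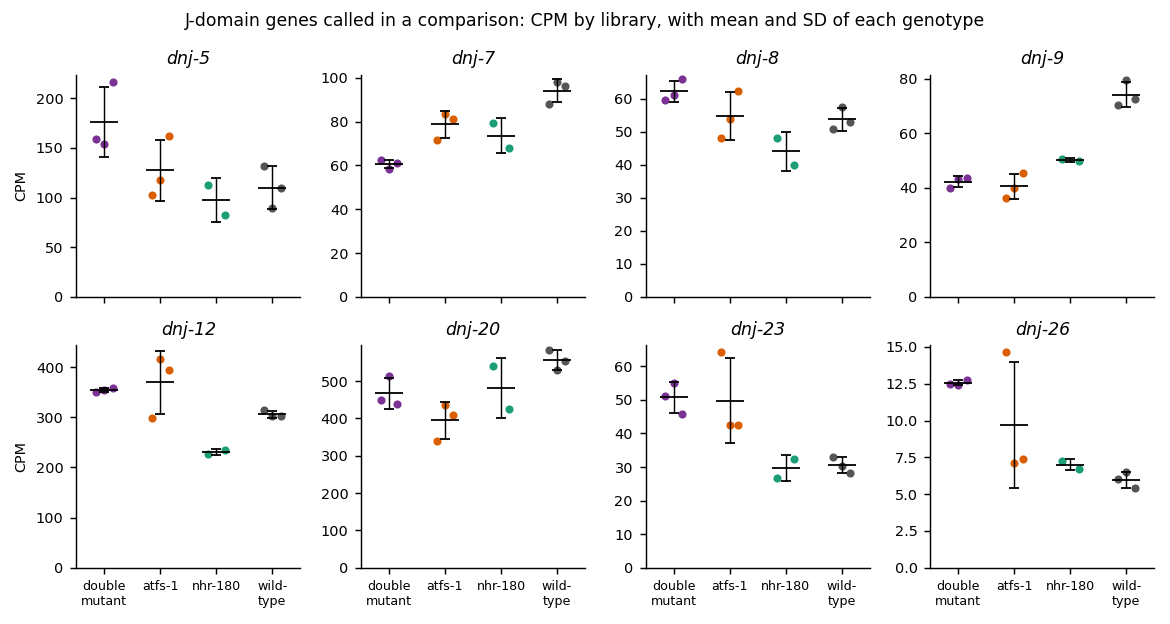
CPM of the 8 J-domain genes called in at least 1 comparison, in each library, with the mean (horizontal mark) and SD (bars) of each genotype. In dnj-9 and dnj-7 the wildtype libraries lie above all others, in dnj-23 the libraries without atfs-1 lie above those with it, and in dnj-26 atfs-1(null) replicate 1 stands apart from its genotype.

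The remaining called genes, dnj-5 and dnj-8, were higher in the double mutant against nhr-180(cmh19). The gene dnj-5 had 159, 154 and 217 CPM in the double mutant, against 113 and 82.1 CPM in nhr-180(cmh19), with no overlap (0.86 ± 0.26, adjusted p = 0.0405 in edgeR). The gene dnj-8 had 59.6, 61.0 and 65.9 CPM in the double mutant, against 48.1 and 39.9 CPM in nhr-180(cmh19), also with no overlap (0.50 ± 0.15, adjusted p = 0.0448 in edgeR). Both calls were close to the threshold: dnj-5 was lost in 8 and dnj-8 in 11 of 20 alternatives. In the other two genotypes dnj-5 averaged 127 ± 30.8 CPM in atfs-1(null) and 110.03 ± 21.5 CPM in wildtype, and dnj-8 averaged 54.7 ± 7.16 CPM in atfs-1(null) and 53.8 ± 3.5 CPM in wildtype.

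The other 20 J-domain genes were called by edgeR in no comparison, while DESeq2 called 3 of them, dnj-11, dnj-27 and dnj-29. Their pairwise log2 fold changes lay between -0.60 (dnj-21, double mutant against nhr-180(cmh19)) and 0.46 (dnj-27, also double mutant against nhr-180(cmh19)). The gene dnj-21 encodes the J-domain subunit of the import motor of the mitochondrial inner membrane, known as TIM14 in other species. It had 21.1, 31.2 and 23.3 CPM in the double mutant and 32.4, 28.0 and 23.1 CPM in atfs-1(null), against 29.8 and 46.8 CPM in nhr-180(cmh19) and 34.0, 35.3 and 44.5 CPM in wildtype. Every library without atfs-1 lay below every wildtype library, and the smallest adjusted p was 0.0887, in the double mutant against wildtype (-0.59 ± 0.22, edgeR). The gene dnj-11, the counterpart of human DNAJC2, a cochaperone at the ribosome, averaged 153 ± 7.91 CPM in the double mutant, 138 ± 10.7 CPM in atfs-1(null), 117 ± 0.438 CPM in nhr-180(cmh19) and 161 ± 3.39 CPM in wildtype. Its nhr-180(cmh19) libraries were the lowest of the 11, and in nhr-180(cmh19) against wildtype it was not called by edgeR (-0.46 ± 0.13, adjusted p = 0.0984) and was called by DESeq2 (adjusted p = 0.00172). The gene dnj-14, which encodes the cysteine string protein of synaptic vesicles, averaged 36.7 ± 2.90 CPM in the double mutant, 39.1 ± 2.26 CPM in atfs-1(null), 38.6 ± 1.45 CPM in nhr-180(cmh19) and 43.8 ± 1.98 CPM in wildtype. The gene dnj-25, which encodes the worm auxilin that uncoats clathrin vesicles, averaged 74.1 ± 8.05 CPM in the double mutant, 63.9 ± 11.2 CPM in atfs-1(null), 69.8 ± 13.1 CPM in nhr-180(cmh19) and 73.9 ± 9.11 CPM in wildtype.

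As a family the J-domain genes had medians of -0.00 in atfs-1(null), -0.14 in nhr-180(cmh19) and 0.02 in the double mutant against wildtype (log2 fold changes of CPM). In the double mutant the median was 0.03 relative to atfs-1(null) and 0.15 against nhr-180(cmh19). In nhr-180(cmh19) against wildtype 21 of the 28 fold changes were negative. There both nhr-180(cmh19) libraries lay below all wildtype libraries in 12 genes and above in 3, where 22.4% of all genes tested were lower in this way. In the double mutant against nhr-180(cmh19) every library was higher in 12 genes and lower in 4, where 28.2% of all genes tested were higher. On TPM the median of all genes tested was 0.11 in atfs-1(null) against wildtype, 0.11 in the double mutant against nhr-180(cmh19) and 0.13 in the double mutant against wildtype, and the J-domain medians were 0.09, 0.28 and 0.15. In atfs-1(null) against wildtype the J-domain median was thus below that of all genes tested on both scales (-0.00 against 0.06 in CPM and 0.09 against 0.11 in TPM). The CCT medians on TPM were 0.33, 0.86 and 0.49 in those comparisons, above the shift of all genes, and -0.40 in nhr-180(cmh19) against wildtype, where all genes had -0.02. The prefoldin medians on TPM were 0.23, 0.41 and 0.32 in the first 3 of these comparisons.

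**Figure D5:**
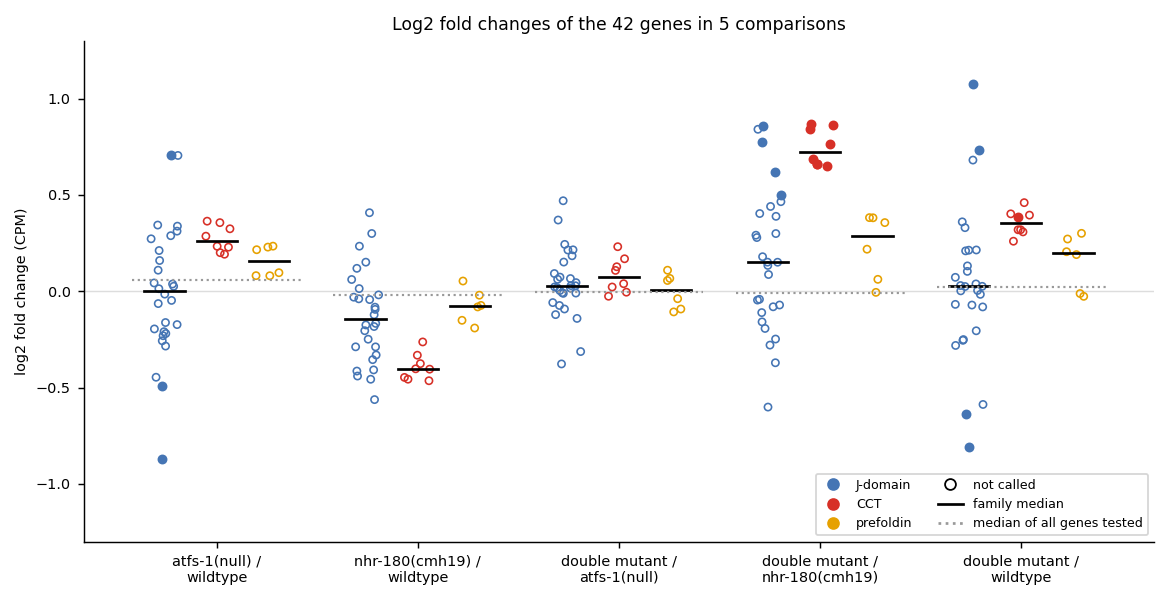
Log2 fold change (CPM) of each of the 42 genes in the 5 pairwise comparisons, one point per gene, filled where the gene was called by edgeR, with the family median as a bar and the median of all genes tested as a dotted line. The CCT genes form a narrow band, at a median of 0.72 in the double mutant against nhr-180(cmh19) and -0.40 in nhr-180(cmh19) against wildtype, while the J-domain genes spread on both sides of 0.

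Genes around these families were read from 5 lists written from gene names. The lists held Hsp70, Hsp110 and Hsp90 genes, their cochaperones, actins and tubulins, hsf-1 with its regulators, and prefoldin-like and R2TP genes. The Hsp90 gene daf-21 was not matched by symbol and has no values here. Of all genes tested, 7.54% were called higher and 6.77% lower in atfs-1(null) against wildtype, and 2.24% either way in nhr-180(cmh19) against wildtype. For the double mutant these were 0.443% either way relative to atfs-1(null), 10.3% higher and 8.21% lower against nhr-180(cmh19), and 10.1% and 6.27% against wildtype. Of 11 measured Hsp70, Hsp110 and Hsp90 genes, 3 rose and 2 fell in atfs-1(null) against wildtype, and 1 fell in nhr-180(cmh19) against wildtype. None was called in the double mutant relative to atfs-1(null) (3 at an unadjusted p under 0.05 and none in DESeq2). In the double mutant 5 rose against nhr-180(cmh19), and 3 rose and 2 fell against wildtype. The list median against wildtype was 0.18 in atfs-1(null), -0.37 in nhr-180(cmh19) and -0.22 in the double mutant (log2). Of the 11 fold changes, 5, 9 and 6 were negative in that order. In the double mutant against nhr-180(cmh19) the median was 0.32, with 4 negative. The genes named next each rose in a comparison, so they do not stand for the list. The constitutive Hsp70 gene hsp-1 averaged 3301 ± 495 CPM in the double mutant, 3188 ± 352 CPM in atfs-1(null), 2141 ± 142 CPM in nhr-180(cmh19) and 2773 ± 230.4 CPM in wildtype. This is the order of CCT, and hsp-1 and hsp-110, the Hsp110 gene, rose in the double mutant against nhr-180(cmh19) (0.62 ± 0.17, adjusted p = 0.0269, and 0.73 ± 0.22, adjusted p = 0.0408, in edgeR). The heat-inducible gene hsp-70 differed by far more and was high in both genotypes without atfs-1, at 30.9 ± 3.32 CPM in the double mutant, 23.6 ± 3.15 CPM in atfs-1(null), 2.81 ± 0.374 CPM in nhr-180(cmh19) and 2.56 ± 0.229 CPM in wildtype. Its relatives F44E5.4 and F44E5.5, whose near-identical sequences make their separate counts uncertain, also rose in each comparison of a genotype without atfs-1 with one that has it, by 2.24 to 3.47 on the log2 scale.

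Of 12 measured cochaperones of Hsp70 and Hsp90, 2 rose in atfs-1(null) against wildtype, 4 in the double mutant against nhr-180(cmh19) and 2 in the double mutant against wildtype, and none fell; in nhr-180(cmh19) against wildtype and in the double mutant relative to atfs-1(null) none was called by edgeR or DESeq2, and 2, both lower in nhr-180(cmh19), had an unadjusted p under 0.05. The gene sti-1, which encodes the adaptor between Hsp70 and Hsp90, averaged 232 ± 27.5 CPM in the double mutant, 238 ± 23.1 CPM in atfs-1(null), 129 ± 20.7 CPM in nhr-180(cmh19) and 147 ± 0.735 CPM in wildtype. The gene hip-1, which encodes the Hsp70-interacting protein, averaged 369 ± 25.9 CPM in the double mutant, 371 ± 13.7 CPM in atfs-1(null), 229 ± 13.4 CPM in nhr-180(cmh19) and 243 ± 6.23 CPM in wildtype. Both were called in each of these 3 comparisons, and their log2 fold changes in nhr-180(cmh19) against wildtype were -0.19 ± 0.16 for sti-1 and -0.08 ± 0.13 for hip-1. The list of hsf-1, the heat shock transcription factor, and 3 of its regulators had 1 call, hsf-1 itself, which rose in the double mutant against nhr-180(cmh19), at 49.3 ± 4.47 CPM in the double mutant and 28.8 ± 7.03 CPM in nhr-180(cmh19) (0.77 ± 0.20, adjusted p = 0.0231 in edgeR). None of the 4 measured prefoldin-like and R2TP genes was called in any comparison, and DESeq2 called 1 in the double mutant against wildtype; at an unadjusted p under 0.05 there was 1 in atfs-1(null) against wildtype, 2 in the double mutant against nhr-180(cmh19) and 1 in the double mutant against wildtype.

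The actins and tubulins, which CCT and prefoldin fold, did not move as a group. Of 21 genes, 3 rose and 2 fell in atfs-1(null) against wildtype, 3 rose and 1 fell in the double mutant against nhr-180(cmh19), and 2 rose and 3 fell in the double mutant against wildtype, with list medians of -0.06, 0.07 and -0.05 (log2). The beta-tubulin gene tbb-2 averaged 1827 ± 229 CPM in the double mutant, 1855 ± 60.4 CPM in atfs-1(null), 1289 ± 27.1 CPM in nhr-180(cmh19) and 1361 ± 78.3 CPM in wildtype, and was called in those 3 comparisons (0.42 to 0.50). The beta-tubulin gene tbb-6 changed most, at 627 ± 88.9 CPM in the double mutant and 598 ± 92.0 CPM in atfs-1(null), against 3.87 ± 0.0340 CPM in nhr-180(cmh19) and 25.7 ± 2.58 CPM in wildtype. It was also the only one of the 21 with a called interaction (2.80 ± 0.25, adjusted p = 0.000507 in edgeR), since it fell in nhr-180(cmh19) against wildtype (-2.73 ± 0.21, adjusted p = 9.4e-05 in edgeR) while the double mutant and atfs-1(null) had about the same level.

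Markers of other tissues moved with some of these comparisons. Where 1 gene of a list was called, that count does not set the list apart from all genes tested. Of 16 oocyte genes, 14 rose in the double mutant against nhr-180(cmh19), 14 in the double mutant against wildtype and 1 in atfs-1(null) against wildtype; in the double mutant relative to atfs-1(null) none was called by edgeR, 15 had an unadjusted p under 0.05 and DESeq2 called 1. The summed oocyte level was 1889 to 2635 CPM in the double mutant, 610.1 to 1629 CPM in atfs-1(null), 666 to 793 CPM in nhr-180(cmh19) and 396 to 865 CPM in wildtype. Of 13 sperm genes, 1 fell in the double mutant against nhr-180(cmh19). In nhr-180(cmh19) against wildtype none was called, but all 13 fold changes were positive, with a median of 0.71 (log2), and 5 had an unadjusted p under 0.05. In 11 of the 13 both nhr-180(cmh19) libraries lay above all wildtype libraries, as in 4008 of 16013 genes tested. In atfs-1(null) against wildtype all 13 were positive too, with a median of 0.36. The summed sperm level was 585 to 800.4 CPM in the double mutant, 390 to 949 CPM in atfs-1(null), 610.0 to 649 CPM in nhr-180(cmh19) and 219 to 549 CPM in wildtype. Of 12 general germline genes, 1 rose in the double mutant against nhr-180(cmh19) and 1 in the double mutant against wildtype, with sums of 1375 to 2720 CPM in the double mutant, 1303 to 2207 CPM in atfs-1(null), 1348 to 1558 CPM in nhr-180(cmh19) and 1108 to 1791 CPM in wildtype.

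Of 10 body wall muscle genes, 2 fell in atfs-1(null) and 1 fell in the double mutant against wildtype. All 10 fold changes were negative in both comparisons. Their medians were -0.43 and -0.36 in that order (log2), against 0.06 and 0.02 for all genes tested. In nhr-180(cmh19) against wildtype 9 were negative, with a median of -0.17. Muscle sums were 9125 to 16234 CPM in the double mutant and 7711 to 16255 CPM in atfs-1(null). They were 12547 to 14268 CPM in nhr-180(cmh19) and 13636 to 16624 CPM in wildtype. Of 6 measured intestinal genes, 1 fell in atfs-1(null) and 2 fell in the double mutant against wildtype, with sums of 6206 to 7985 CPM in the double mutant, 6440 to 7311 CPM in atfs-1(null), 6819 to 6897 CPM in nhr-180(cmh19) and 6703 to 7139 CPM in wildtype. Of 10 neuronal genes, 1 rose in atfs-1(null) against wildtype, 1 in the double mutant against nhr-180(cmh19) and 1 in the double mutant against wildtype. Most went the other way against wildtype, with 7 negative fold changes in atfs-1(null), 9 in nhr-180(cmh19) and 8 in the double mutant. The medians were -0.22, -0.13 and -0.29 in that order (log2). In the double mutant relative to atfs-1(null) all 10 were negative, and against nhr-180(cmh19) 5 were negative and 5 positive. Neuronal sums were 767 to 842 CPM in the double mutant and 818 to 1035 CPM in atfs-1(null). They were 677 to 775 CPM in nhr-180(cmh19) and 773 to 851 CPM in wildtype. None of these markers was at 0 in any library. The oocyte and CCT sums ran together within some genotypes and not in others. In replicates 1, 2 and 3 of the double mutant the oocyte sums were 1889, 2370.0 and 2635 CPM and the CCT sums 3608, 3511 and 3795 CPM, both highest in replicate 3. In replicates 1, 2 and 3 of atfs-1(null) the oocyte sums were 1629, 610.1 and 1022 CPM and the CCT sums 2937, 3620 and 3751 CPM, with the highest oocyte sum beside the lowest CCT sum. In nhr-180(cmh19) replicates 2 and 3 had oocyte sums of 793 and 666 CPM and CCT sums of 2182 and 2169 CPM, and in wildtype replicates 1, 2 and 3 had oocyte sums of 865, 396 and 649 CPM and CCT sums of 2944, 2778 and 2859 CPM, in the same order for both lists. The part of the tissue make-up in the differences of the 42 genes was not tested.

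By position, the 4 CCT genes cct-1 to cct-4 lie on chromosome II, cct-5 and cct-6 on III, cct-8 on IV and cct-7 on V. The gene cct-1 (WBGene00000377) spans II:8185443-8187601 on the plus strand and cct-4 (WBGene00000379) II:8283667-8285711 on the same strand, while cct-3 (WBGene00018782), with the largest fold change in the double mutant against nhr-180(cmh19), spans II:2233540-2243539. The gene dnj-9 (WBGene00001027) spans II:4852056-4857820 and dnj-7 (WBGene00001025) X:7194564-7198291, both on the plus strand. These coordinates stand in the deposited table and equal those of the WBcel235 annotation for all 42 genes. None of the 42 overlaps a protein-coding gene on its own strand, and 10 overlap one on the other strand: cct-1, cct-7, dnj-2, dnj-5, dnj-11, dnj-12, dnj-13, dnj-14, dnj-17 and dnj-25. With the strand setting of the counting not given in the sources used here, counts of these 10 may include reads of their neighbours.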

How the data were processed

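RNA was extracted with Trizol and sequenced from strand-specific libraries read from both ends, per the labels' protocols. The deposited tables gave raw counts per gene for 46926 genes, for which the submitters' processing notes name featureCounts 1.5.2, and TPM for 18798 genes, which the authors normalised to length and depth. The sources used here name no aligner, build or strand setting of the counting.

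Counts were filtered with filterByExpr, scaled with TMM factors and fitted with edgeR 4.0.16 (R 4.3.3) in 1 quasi-likelihood model over all 11 libraries with 1 mean per genotype, and p-values were adjusted over all 16013 genes. Calls required an adjusted p under 0.05. The common coefficient of biological variation was 21.7%. The model was also run on simulated counts drawn without shifts of single libraries, and that run is no support for the calls reported here. Alternatives were DESeq2 1.42.0 and its size factors, no filter, a fit of the compared genotypes alone, the replicate number as a block, limma 3.58.1 on log2(TPM + 1) or log2(TPM + 0.1), with the pseudocount of 1 also without its minimum of 1 TPM in 2 libraries, leaving out each library, and leaving out atfs-1(null) replicate 1 and wildtype replicate 2 together. Libraries of a genotype differed by more than sampling noise.

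All 42 members could be named, with values per library for those called. The members and gene lists were chosen with earlier results of these data known. Of the listed genes, opt-2, daf-21, hsp-40 and vbp-1 were not matched by symbol and were not analysed here.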

Additional observations from a re-analysis of the deposited data

Results flagged for a closer look

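The gene dnj-11 was singled out because its libraries without atfs-1 lay on opposite sides of those with atfs-1 in wildtype and in nhr-180(cmh19) backgrounds. In atfs-1(null) against wildtype, every atfs-1(null) library of dnj-11, at 140, 127 and 148 CPM, lay below every wildtype library, at 164, 158 and 161 CPM. In the double mutant against nhr-180(cmh19), every double mutant library, at 146, 162 and 153 CPM, lay above both nhr-180(cmh19) libraries, at 118 and 117 CPM. The fold changes were -0.22 ± 0.11 in atfs-1(null) against wildtype and 0.39 ± 0.13 in the double mutant against nhr-180(cmh19) (log2 ± SE), and neither was called by edgeR (adjusted p = 0.219 and 0.0562 in that order). The gene was picked for this pattern, so the test of the difference is no independent support. That test, the interaction, gave 0.61 ± 0.17 on the log2 scale and was not called by edgeR's quasi-likelihood test (adjusted p = 0.140), while the DESeq2 Wald test called it (adjusted p = 0.00274). The gene overlaps lec-11 on the other strand, so part of its count may belong to that gene. No group had 4 or more libraries, so single libraries were not tested as outliers.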

How the results depend on the processing

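No call reported here was called in the opposite direction under any alternative. Called in all 20 alternatives were dnj-9 in atfs-1(null) and in the double mutant against wildtype, dnj-7 in the double mutant against wildtype and cct-1 in the double mutant against nhr-180(cmh19). Every library held 20860822 counts or more, and each genotype had 2 or 3 libraries. Leaving out 1 library at a time, the J-domain calls lay between 1 and 4 (3 with all) in atfs-1(null) against wildtype, 0 and 1 (0) in nhr-180(cmh19) against wildtype, 0 and 1 (0) in the double mutant relative to atfs-1(null), 0 and 7 (4) against nhr-180(cmh19) and 2 and 5 (4) against wildtype. The CCT calls lay between 0 and 1 (0) in nhr-180(cmh19) against wildtype, 1 and 8 (8) in the double mutant against nhr-180(cmh19) and 0 and 3 (1) against wildtype. The J-domain count in the double mutant against nhr-180(cmh19) was lowest, at 0, without double mutant replicate 1 or 2 or either nhr-180(cmh19) library, and highest without atfs-1(null) replicate 1.

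The DESeq2 Wald test called 1 CCT gene in atfs-1(null) and 2 J-domain and 4 CCT genes in nhr-180(cmh19) against wildtype, 7 J-domain genes in the double mutant against nhr-180(cmh19), 3 CCT genes in the double mutant against wildtype, and 2 J-domain genes and 1 CCT gene in the interaction. On TPM, with either pseudocount or no filter, limma called 1 CCT gene in atfs-1(null) against wildtype, 8 J-domain genes and 1 prefoldin gene (pfd-3) in the double mutant against nhr-180(cmh19), and 3 CCT genes in the double mutant against wildtype; there it called 1 prefoldin gene (pfd-4), and 2 without a filter. With the compared genotypes only, 1 J-domain gene was called in atfs-1(null) and 2 CCT genes in the double mutant against wildtype; the interaction has no such fit. The CCT call in the double mutant against wildtype went to 0 with DESeq2 size factors, without a filter, with the replicate block and with atfs-1(null) replicate 1 and wildtype replicate 2 left out together. The last setting gave 1 J-domain call in atfs-1(null) against wildtype and 1 in the double mutant relative to atfs-1(null). The replicate block gave 1 J-domain call in nhr-180(cmh19) against wildtype. There the calls over all genes went from 252 higher and 106 lower to 519 higher and 176 lower. Same-numbered libraries deviated together in 5 of 15 pairs (correlation over 0.1), and libraries of different numbers in 12 of 30. The 2 nhr-180(cmh19) libraries deviate from their mean in mirror image, so this check cannot settle whether the numbers pair the libraries. The cause of these changes was not tested.

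The family medians kept their sign in every alternative for CCT except in the double mutant relative to atfs-1(null), where it held in 18 of 20. J-domain and prefoldin medians changed sign in some, the J-domain one in atfs-1(null) against wildtype holding in 14 of 20 and the prefoldin one in the double mutant relative to atfs-1(null) in 16 of 20: the J-domain median ranged from -0.08 to 0.09 in atfs-1(null) against wildtype and from -0.02 to 0.15 in the double mutant against wildtype, and the prefoldin median from -0.01 to 0.25 in atfs-1(null) against wildtype; in the double mutant against wildtype it stayed above 0, from 0.10 to 0.33.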
